A study of Mus musculus with 8 samples.

Results

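A group of 10 lysosomal protease genes was followed in spinal cord microglia: the cathepsins Ctsa, Ctsb, Ctsc, Ctsd, Ctsf, Ctsh, Ctsl, Ctss and Ctsz, and legumain, Lgmn. They were chosen by symbol, as 10 of the 27998 genes in the count matrices. The rule used no measured value, although the group was picked with earlier results of these data known. Cathepsins are made as inactive precursors, are sorted to the lysosome and become active in its acid interior, where they break down engulfed and worn-out proteins. Microglia, the tissue macrophages of brain and spinal cord, are rich in them. Cathepsin S also trims the invariant chain during MHC class II antigen presentation, and it can be secreted and act outside the cell.

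RNA was counted in single cells of 8 libraries from lumbar cord of C57BL/6 mice, sorted for YFP. All animals carried Cx3cr1-yfp-creER/+, in which one Cx3cr1 allele drives YFP and a tamoxifen-inducible Cre in cells that express the fractalkine receptor. The 4 control libraries carried no other allele, and the 4 A20 cKO libraries were also Tnfaip3 fl/fl, so that Cre deletes A20 in these cells after tamoxifen, which the methods give for recombination. In each genotype 1 library was naive and 1 each came from day 1, day 2 and day 3 after bilateral sciatic nerve transection, in young adult animals. Each library pooled tissue of several animals, so a group was 1 library without a replicate, no test between groups was run, and variation between animals cannot be told apart from differences between groups. The intervals given are 95% intervals and cover counting error only.

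Of 14883 barcodes 14626 were kept as cells, between 558 and 3585 per library, with a median of 2780 to 4274 UMIs per cell (a UMI marks 1 captured RNA molecule). The libraries fell into 2 sets. Control day 3 and the 4 A20 cKO libraries shared barcodes with each other at 5.41 to 67.6 for each 1000000 possible pairs of cells, against 1.48 to 2.29 within control naive, day 1 and day 2, and 0.797 to 8.83 across the sets. RNA of other cells followed the same split: 6 neutrophil markers summed to 31.5 to 55.8 CPM (UMIs of a gene for each 1000000 UMIs of the library) in the 5 linked libraries and to at most 0.142 CPM in the other 3, where 5 of the 6 were at 0. The 6 monocyte markers summed to 31.2 to 92.6 against 2.77 to 8.64 CPM, 6 oligodendrocyte markers to 218 to 286 against 137 to 149, 6 astrocyte markers to 261 to 394 against 105 to 164, 7 border macrophage markers to 4.12 to 12.6 against 0.711 to 1.64 and 5 neuron markers to 3.81 to 14.5 against 1.85 to 2.84. The 5 endothelial markers (27.1 to 46.2 against 13.7 to 51.2 CPM) and 5 lymphocyte markers (at most 0.787 against 0.356 to 3.67 CPM, Cd3e at 0 throughout) did not follow it. The 10 microglia markers followed it the other way, at 13219 to 21443 CPM in the linked libraries against 23423 to 29244 CPM in the other 3. Fos, an early response gene, varied from 13.2 CPM in A20 cKO day 1 to 4105 CPM in control day 1. Tnfaip3 was detected at 6.83 to 25.3 CPM over the control course and at 42.3 to 67.7 CPM over the A20 cKO course. The sources used here do not say which part of the gene is deleted, and 3′ tags outside that part do not check the genotype, so the names of the genotypes below follow the labels alone.

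The 7 cysteine cathepsins among them are Ctsb, Ctsc, Ctsf, Ctsh, Ctsl, Ctss and Ctsz. Ctsd is an aspartic protease, Ctsa a serine carboxypeptidase that also protects other lysosomal enzymes, and Lgmn an asparaginyl endopeptidase that cleaves precursors of several cathepsins. They are spread over the genome (mouse build mm10, GENCODE M21): Ctsa at chr2:164832873-164841032 and Ctsz at chr2:174427493-174439039, Ctss at chr3:95526786-95556403, Ctsc at chr7:88278085-88310888 and Ctsd at chr7:142375911-142388038, Ctsh at chr9:90054152-90076089, Lgmn at chr12:102394084-102439813, Ctsl at chr13:64359337-64370890, Ctsb at chr14:63122462-63145923 and Ctsf at chr19:4855130-4860918. All 10 are annotated as protein coding. In this annotation genes on the same strand overlap Ctsd (Gm49369), Ctsl (Gm49230) and Ctss (Hmgb1-ps5). The counts of those 3 members could be affected by the overlap, which was not tested.

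Promoter windows from RefSeq (GRCm38.p6, 250 bases before to 50 after a start site) were found for 8 members in 10 windows. Ctsb and Ctsh were not matched. The letters CACGTG, the E-box core that basic helix-loop-helix factors such as TFEB recognise in lysosomal genes, were in 5 of the 10 windows, those of Ctsa, Ctsd, Ctsf, Ctsl and Lgmn, against 7.15% of all 32851 windows of this length. The longer form TCACGTGA, which contains CACGTG, was in 2 windows, of Ctsa and Ctsd (0.974% of all windows). The letters GAAA repeated after any 2 bases, as in interferon response elements and searched on both strands like the others, were in the window of Ctss alone among the members (3.44% of all windows). These matches describe letters and no binding. The 250 bases before the start site are shown for the 3 members that were lowest in control day 3 relative to control naive and for Ctss, the most abundant member, with the matched letters in capitals.
Ctsd, chr7:142387828-142388077, minus strand: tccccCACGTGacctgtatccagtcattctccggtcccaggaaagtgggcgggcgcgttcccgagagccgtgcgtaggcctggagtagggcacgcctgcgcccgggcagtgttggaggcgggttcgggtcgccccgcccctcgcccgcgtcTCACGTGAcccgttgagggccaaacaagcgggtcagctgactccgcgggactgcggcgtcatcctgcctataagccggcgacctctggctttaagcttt
Ctsa, chr2:164833523-164833772, plus strand, the downstream of its 2 start sites: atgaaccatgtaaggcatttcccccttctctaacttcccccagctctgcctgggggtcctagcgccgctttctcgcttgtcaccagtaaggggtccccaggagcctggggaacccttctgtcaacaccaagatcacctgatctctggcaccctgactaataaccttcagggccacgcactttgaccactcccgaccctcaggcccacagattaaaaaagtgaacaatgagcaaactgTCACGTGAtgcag
Ctsf, chr19:4854915-4855164, plus strand: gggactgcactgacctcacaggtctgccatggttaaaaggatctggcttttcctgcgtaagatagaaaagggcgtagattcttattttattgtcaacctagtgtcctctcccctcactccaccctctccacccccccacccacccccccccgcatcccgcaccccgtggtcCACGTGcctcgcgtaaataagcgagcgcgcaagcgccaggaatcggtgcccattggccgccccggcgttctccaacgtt
Ctss, chr3:95526536-95526785, plus strand: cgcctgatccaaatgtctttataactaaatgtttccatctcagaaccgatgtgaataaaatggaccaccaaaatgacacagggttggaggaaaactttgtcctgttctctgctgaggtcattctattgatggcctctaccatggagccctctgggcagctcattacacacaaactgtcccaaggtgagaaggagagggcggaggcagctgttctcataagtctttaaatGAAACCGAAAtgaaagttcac
In Ctsd the TCACGTGA match began 99 bases before the start site, in Ctsa 13 bases before it (with another match just after it, not shown), and in Ctsf the CACGTG match began 79 bases before it. In Ctss the GAAA repeat began 21 bases before the start site.

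All 10 members were detected in all 8 libraries, and together they made up 2.84% to 3.68% of all UMIs. A 3′ tag counts each molecule once whatever its length, so levels were compared between genes without a length correction. In every library Ctss, Ctsd and Lgmn were the 3 highest members in that order, and Ctsa and Ctsf the lowest. Ctss had a median of 11593 CPM over the libraries, Ctsd 6787, Lgmn 4603, Ctsz 2447, Ctsb 2091, Ctsh 1358, Ctsl 1103, Ctsc 926, Ctsa 459 and Ctsf 179 CPM. The widest ranges over the libraries were those of Ctsd (2.06-fold), Ctsa (2.03-fold) and Ctsf (2.01-fold), and the narrowest was that of Ctss (1.39-fold).

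**Figure D1:**
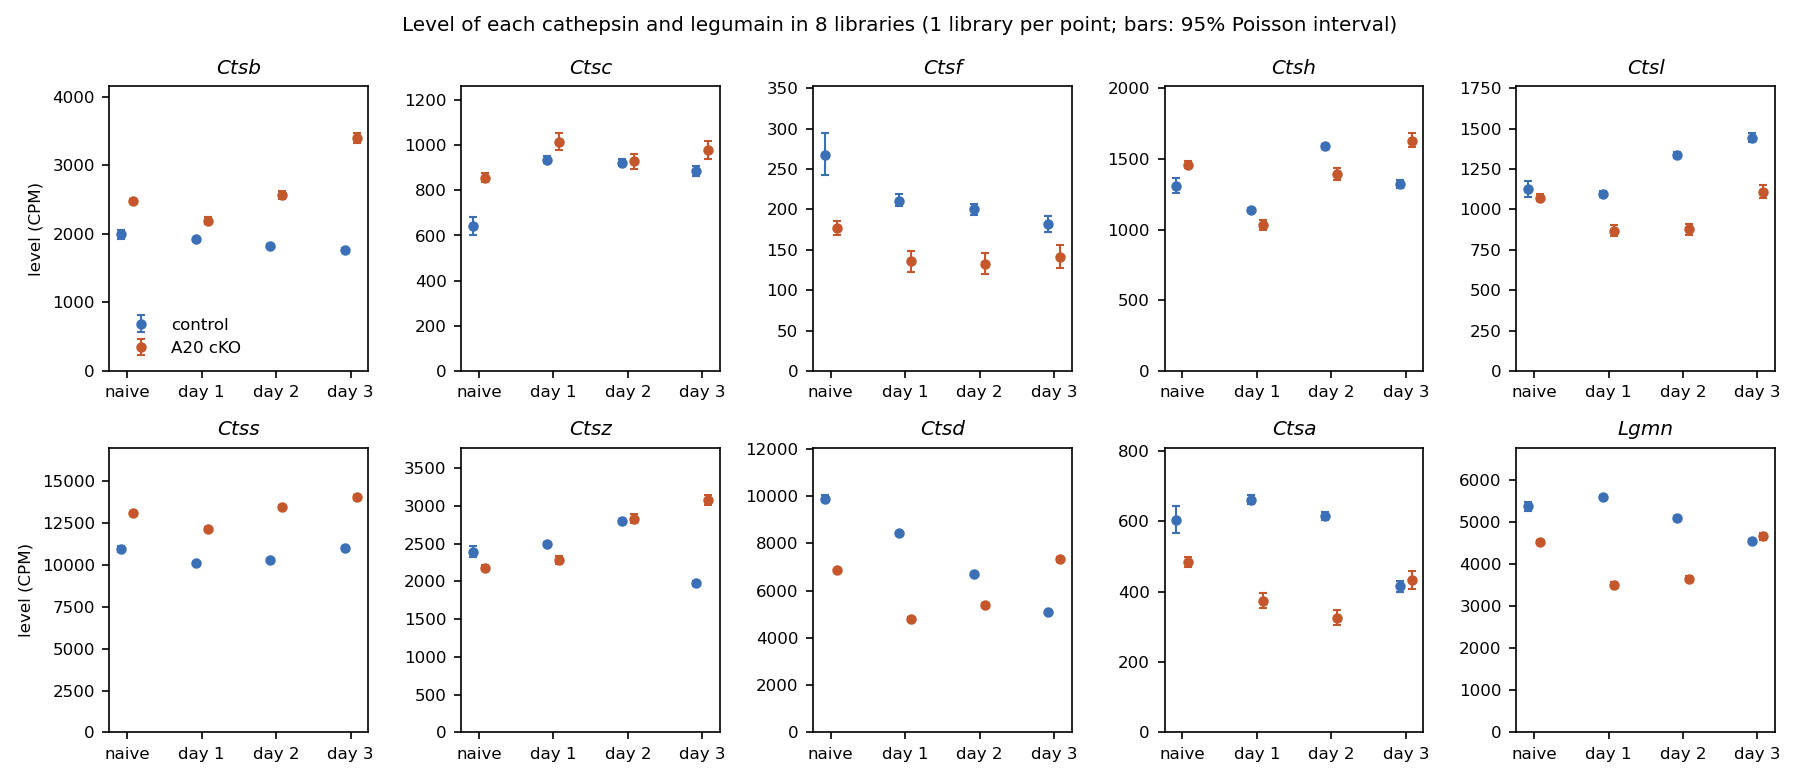
Level of each member in CPM (vertical axes, from 0) in the 4 control (blue) and 4 A20 cKO (orange) libraries at naive and days 1 to 3, with 95% Poisson intervals as bars. Ctsd in control stepped down from 9898 to 5096 CPM, while Ctsb reached its highest level, 3389 CPM, in A20 cKO day 3.

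Among the cysteine cathepsins, Ctss, an endopeptidase that stays active at neutral pH, stood at 10952, 10135, 10301 and 11042 CPM in the control course (naive, then days 1, 2 and 3). In the A20 cKO libraries it stood at 13088, 12145, 13460 and 14044 CPM in the same order. All 4 A20 cKO libraries were thus above all 4 control libraries, and only control day 3 and control naive were neighbours with overlapping intervals. This ordering of genotypes includes control day 3, which belongs to the same linked set as the A20 cKO libraries. How many of all genes separated the genotypes in this way was not counted, here or for Ctsb, Ctsf and Cst3 below.

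Ctsb, an endopeptidase and carboxypeptidase, was at 1991, 1918, 1825 and 1768 CPM in the control course. The A20 cKO course gave 2482, 2192, 2568 and 3389 CPM. As with Ctss, no A20 cKO library was below a control library. The highest was A20 cKO day 3 (3318 to 3462) and the lowest control day 3 (1738 to 1799).

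Ctsz, a carboxypeptidase also called cathepsin X, was at 2393, 2500, 2798 and 1976 CPM over the control course and at 2183, 2280, 2826 and 3075 CPM over the A20 cKO course. The genotypes overlapped, and A20 cKO day 2 and control day 2 had overlapping intervals. Day 3 held both extremes, the lowest level in control and the highest in A20 cKO.

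Ctsc, a dipeptidyl peptidase that activates granule serine proteases, was at 641, 936, 923 and 884 CPM over the control course and at 855, 1016, 928 and 978 CPM over the A20 cKO course. Control naive stood below the other 7 libraries, which differed little: 5 pairs of neighbours in the order of levels had overlapping intervals. The interval of control naive was 603 to 681 CPM and that of A20 cKO naive, the next lowest, 836 to 875 CPM.

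Ctsh, an aminopeptidase, was at 1311, 1138, 1590 and 1322 CPM over the control course and at 1459, 1034, 1394 and 1630 CPM over the A20 cKO course. Day 1 was the lowest library of each genotype. Ctsl, an endopeptidase, was at 1125, 1096, 1337 and 1442 CPM over the control course and at 1072, 868, 877 and 1110 CPM over the A20 cKO course. Its 2 highest libraries were control day 3 and control day 2, and its 2 lowest, A20 cKO day 2 and day 1, had overlapping intervals.

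Ctsf, the least abundant member and a cysteine endopeptidase, was at 267, 211, 200 and 182 CPM over the control course and at 177, 136, 133 and 141 CPM over the A20 cKO course. Each A20 cKO library was below all control libraries, although control day 3 and A20 cKO naive had overlapping intervals (172 to 192 and 168 to 186 CPM). The 3 injured A20 cKO libraries could not be ordered at this depth, with 358 to 411 UMIs each.

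Ctsd, the main aspartic protease of lysosomes, was at 9898, 8451, 6691 and 5096 CPM from control naive to control day 3. In A20 cKO it was at 6882, 4816, 5389 and 7337 CPM. Control libraries thus stood lower at each later day, whereas in A20 cKO day 1 was lowest and day 3 highest. No pair of neighbours in its order of levels had overlapping intervals, the only member for which this held.

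Ctsa was at 604, 662, 615 and 415 CPM over the control course and at 485, 374, 326 and 433 CPM over the A20 cKO course. Control naive, day 1 and day 2 were above the 5 linked libraries, a split that follows the sets of libraries as well as, in part, genotype. Lgmn was at 5363, 5596, 5094 and 4548 CPM over the control course and at 4520, 3507, 3652 and 4657 CPM over the A20 cKO course. Here too control naive, day 1 and day 2 were the 3 highest, and control day 3 had an interval overlapping those of A20 cKO naive and A20 cKO day 3. For both genes the set of libraries and the genotype cannot be told apart except through control day 3.

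The course after injury in control animals addressed how microglial RNA differs over the first days after nerve transection. Each log2 ratio below is that of 2 CPM values minus the median log2 ratio of all tested genes (at least 100 UMIs in both sums together), so that 0 is the median gene, and a gene was counted as higher or lower when it was past 1.5-fold (0.58 on the log2 scale). On day 1 against naive, Ctsc was the 1 member of 10 that was higher, by 0.67 (0.58 to 0.77), where 14.2% of 8866 tested genes were higher. None was lower, where 15.3% of genes were. The other 9 members lay between -0.21 (Ctsf) and 0.26 (Ctsa), and the members' median was 0.08. Scaling without the median gene moved Ctsc to 0.55, short of 1.5-fold. It was also the day with the most early response RNA: the 10 early response and heat shock genes summed to 18534 CPM against 1018 CPM in naive, and their part in this result was not tested.

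On day 2 against naive, Ctsc was again the 1 member counted as higher, by 0.64 (0.55 to 0.74), where 16.4% of 9279 tested genes were higher. No member was lower, where 14.3% of genes were. Ctsh (0.39), Ctsl (0.37) and Ctsz (0.34) came next, and Ctsd was the furthest below the median gene at -0.45 (-0.47 to -0.42). Day 2 held 1081 mitotic cells of 3585 (cells in which 3 or more of 18 core G2/M genes had a UMI), against 1 in naive and 8 on day 1. Without these cells Ctsc was at 0.49. The day 1 and day 2 comparisons share the naive library, which had 1039 Ctsc UMIs.

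Control day 3 against naive compares libraries across the 2 sets. The aspartic protease Ctsd was lower by 2.04-fold (-1.03), Ctsf by 1.54-fold (-0.63, -0.78 to -0.47) and Ctsa by 1.53-fold (-0.61, -0.72 to -0.51). These 3 of 10 members were lower where 12.9% of 8302 tested genes were, and none was higher, where 17.7% of genes were. Ctsc (0.39) and Ctsl (0.29) were the 2 members above the median gene, and the members' median was -0.27. Ctsd stayed past 1.5-fold under all 10 alternative settings, between -1.03 and -0.93, while Ctsf did so in 7 and Ctsa in 6. Without mitotic cells Ctsd alone was past it. Neutrophil and monocyte markers moved with this comparison, as given above for the linked libraries, and 5 of the 10 microglia markers were lower (list median -0.60). Without cells that held 3 or more UMIs of markers of other cell types the same 3 members were lower, and the part of the library set was not tested.

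**Figure D2:**
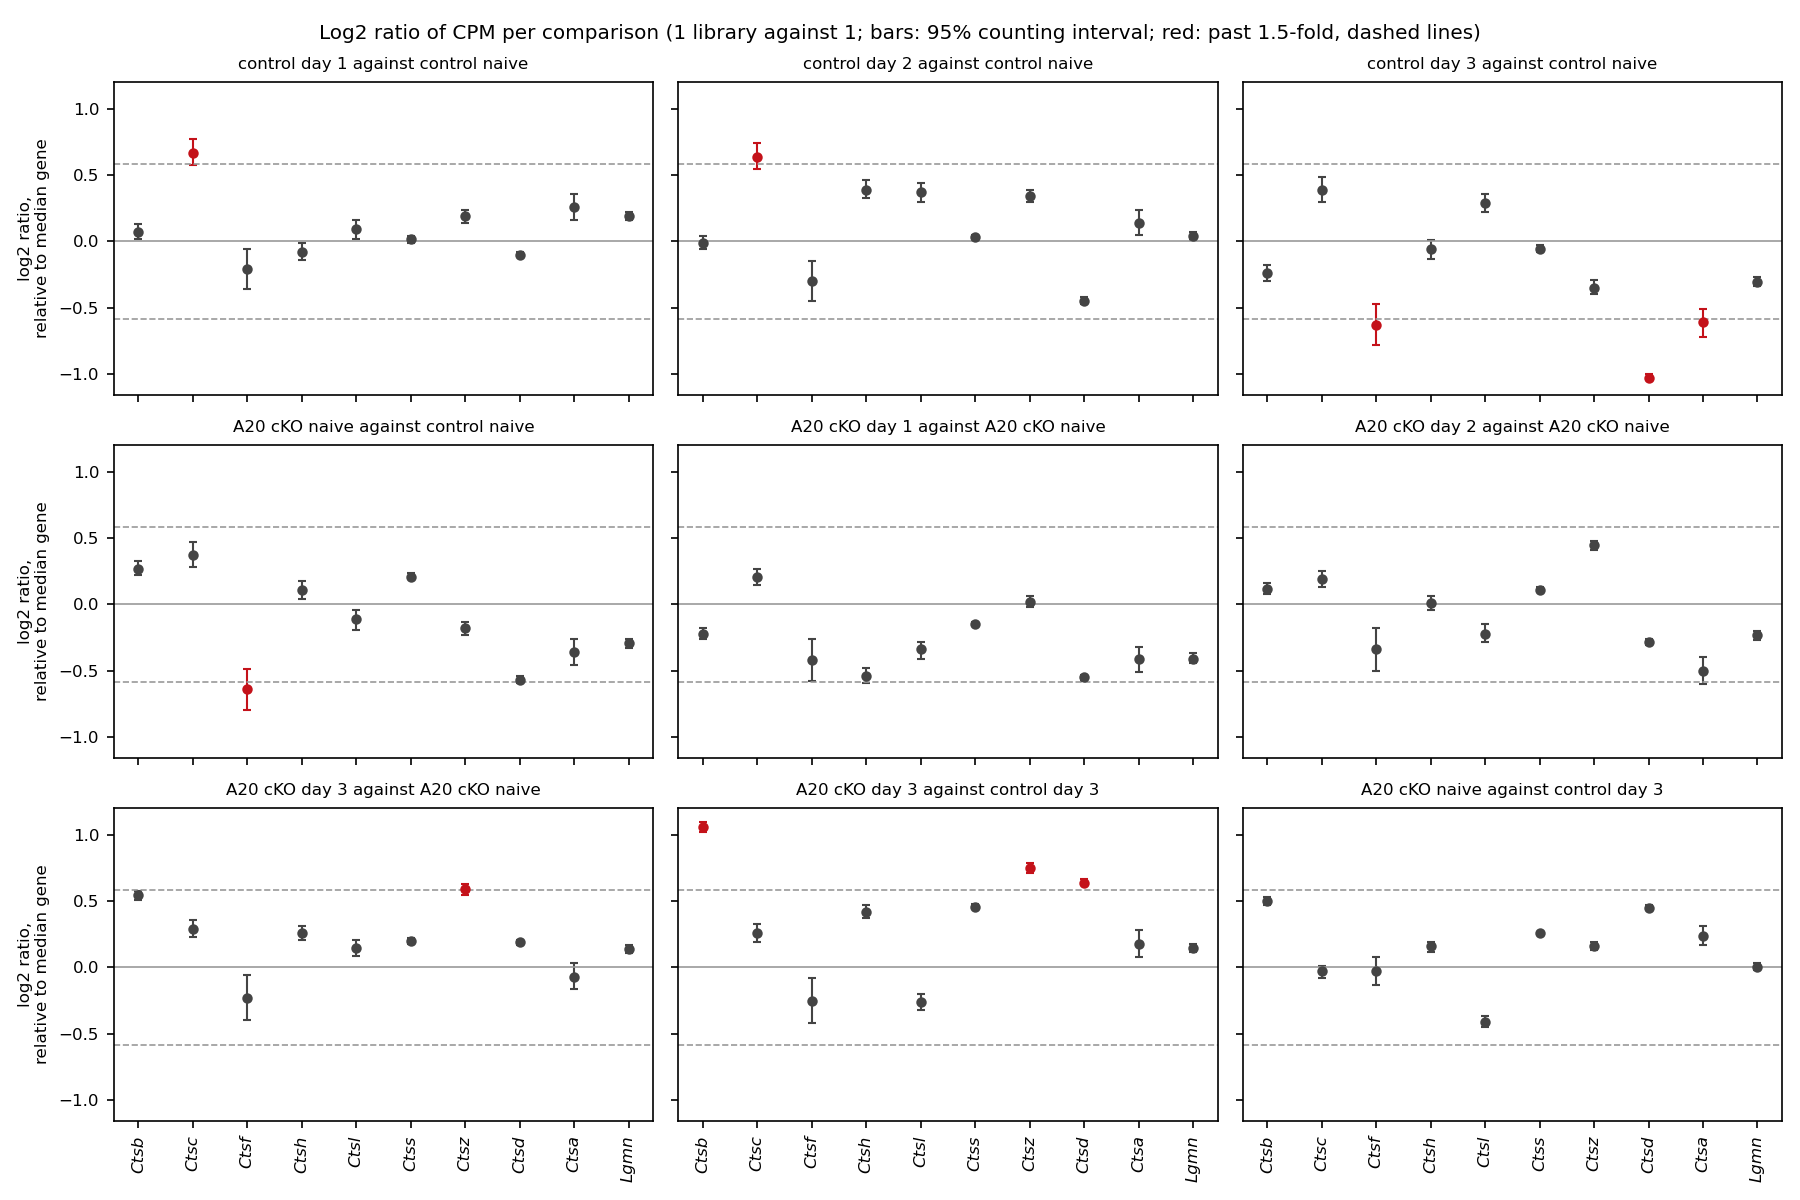
Log2 ratio of CPM relative to the median gene (vertical axis) for the 10 members (horizontal axis) in 9 comparisons of 1 library with 1 library, with 95% counting intervals. Red points are past 1.5-fold (dashed lines): Ctsc in 2 control comparisons, Ctsd, Ctsa and Ctsf in control day 3, Ctsf in A20 cKO naive, and Ctsz, Ctsb and Ctsd in the comparisons of A20 cKO day 3.

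The naive libraries of the genotypes were compared without injury, again across the 2 sets, so genotype and set cannot be told apart here. Ctsf was the 1 member counted as lower in A20 cKO naive than in control naive, by 1.56-fold (-0.64, -0.80 to -0.49), where 10.6% of 8641 tested genes were lower. It was past the threshold under 9 of 10 alternative settings, and at -0.51 without the filter on low counts. None was higher, where 17.1% of genes were. Ctsd lay just inside the threshold at -0.57 (-0.59 to -0.54), and was past it under 2 of 10 alternative settings. Highest were Ctsc (0.37), Ctsb (0.27) and Ctss (0.21). Of the other cysteine cathepsins, Ctsh was at 0.11, while Ctsl (-0.11), Ctsz (-0.18) and Ctsf lay below the median gene. The same markers of other cells and 92 against 1 mitotic cells moved with this comparison, and 4 of the 10 microglia markers were lower (list median -0.57). Of the early response and heat shock genes 7 of 8 tested were higher, with the list at 3944 against 1018 CPM. The part of these differences was not tested.

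A20 cKO naive can also be set beside control day 3, the 1 control library of the linked set, although injury then differs too. No member was past 1.5-fold in either direction, where 3.86% of 9541 tested genes were higher and 4.67% lower. Ctsb was highest at 0.50 (0.47 to 0.53), Ctsd followed at 0.45, and Ctsl was lowest at -0.41 (-0.45 to -0.37). Ctsf (-0.03, -0.13 to 0.08), Lgmn (0.00, -0.02 to 0.03) and Ctsc (-0.03, -0.08 to 0.01) did not differ from the median gene beyond counting error.

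Within the A20 cKO course all libraries were of the linked set. On day 1 no member was past 1.5-fold against A20 cKO naive, where 6.01% of 8919 tested genes were higher and 6.11% lower. Of the 10 members 8 were nonetheless below the median gene, with a median of -0.37, and Ctsd (-0.55), Ctsh (-0.54), Ctsf (-0.42), Ctsa (-0.41) and Lgmn (-0.41) were the lowest. Ctsc, at 0.21, was the highest. Leaving out cells with other-type markers brought Ctsd to -0.59, past the threshold. Early response RNA was also lower on this day, at 857 against 3944 CPM for the 10 genes, and its part was not tested.

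On day 2 no member was past 1.5-fold either, where 9.19% of 8921 tested genes were higher and 8.06% lower. Ctsz was at 0.45 (0.41 to 0.48) and Ctsa at -0.50 (-0.60 to -0.40), the extremes of the 10. Ctss (0.11), Ctsb (0.12) and Ctsc (0.19) lay a little above the median gene, and Lgmn (-0.23), Ctsl (-0.22) and Ctsd (-0.28) below it. Early response and heat shock RNA was lower on this day too, at 771 against 3944 CPM for the 10 genes. All 17 tested core G2/M genes were higher and 3 of the 10 microglia markers were lower. The part of these differences was not tested.

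On day 3, Ctsz was the 1 member counted as higher than in A20 cKO naive, by 1.51-fold (0.59, 0.55 to 0.63), where 7.55% of 8797 tested genes were higher. None was lower, where 6.24% of genes were. Ctsb lay just inside at 0.55 (0.51 to 0.58). Ctsz was past 1.5-fold under 8 of 10 alternative settings and Ctsb under 4, so these 2 carboxypeptidases were not separated by the threshold. Ctsc (0.29), Ctsh (0.26), Ctss (0.20), Ctsd (0.19), Ctsl (0.15) and Lgmn (0.14) were above the median gene as well, and Ctsf (-0.23) and Ctsa (-0.07) below it. All 14 tested core G2/M genes were higher on this day (list median 1.37), and 3 of the 10 microglia markers were lower (list median -0.43). Their part was not tested.

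Day 3 allows a comparison of the genotypes inside the linked set. Ctsb was 2.08-fold higher in A20 cKO than in control (1.06, 1.02 to 1.10), Ctsz 1.69-fold (0.75, 0.71 to 0.79) and Ctsd 1.56-fold (0.64, 0.62 to 0.67). These were 3 of 10 members, where 6.97% of 8488 tested genes were higher. None was lower, where 6.61% of genes were. Ctss (0.46) and Ctsh (0.42) followed, while Ctsl (-0.26, -0.32 to -0.20) and Ctsf (-0.25, -0.42 to -0.08) were below the median gene. Ctsb and Ctsz stayed past 1.5-fold under all 10 alternative settings and Ctsd under 8. The median gene itself was at -0.12 in unshifted CPM here, and the CPM ratios alone were 0.94 for Ctsb, 0.64 for Ctsz and 0.53 for Ctsd. Cells with 3 or more UMIs of other-type markers made up 311 of 558 A20 cKO cells and 653 of 2117 control cells (100 and 129 when 4 markers that microglia may also express were left out of the lists). Without these cells, by either list, the same 3 members were higher. In this comparison 4 of the 10 microglia markers were lower (list median -0.37). Of the early response and heat shock genes 5 of 8 tested were higher (list median 0.68), and the part of both was not tested.

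The share of cells with at least 1 UMI was compared after every cell was thinned to 2000 UMIs, which left 13691 cells and dropped 935 shallower ones. Ctss was then found in 99.8% to 100% of the cells of a library, Ctsd and Lgmn in 99.4% to 100%, Ctsz in 96.4% to 99.4% and Ctsb in 95.3% to 99.1%. For Ctsz control day 3 (95.5% to 97.2%) lay below control day 2 (99.1% to 99.6%), and for Ctsb control day 3 (94.2% to 96.2%) lay below A20 cKO day 3 (97.8% to 99.7%). Shares this close to 100% leave little room for differences. In the 20 kept cells without any UMI of 4 microglia markers and with markers of other cells, at a median of 1342 UMIs, Ctsb was found in 70.0%, Ctss in 55.0%, Ctsd in 40.0% and Lgmn in 4 of the 20 cells, against a median depth of 3532 UMIs in all kept cells.

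The less abundant members differed in their share between libraries. Ctsa was found in 66.5%, 72.2%, 69.8% and 54.4% of cells over the control course, and in 60.4%, 48.8%, 45.5% and 54.5% in the A20 cKO course. Before thinning its shares ran from 68.1% to 91.3%. The thinned shares of control day 3 (52.1% to 56.6%) and A20 cKO day 3 (50.1% to 58.7%) overlapped, as their CPM intervals did.

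Ctsf, found in the fewest cells, had shares of 39.6%, 33.9%, 35.4% and 30.5% over the control course and of 30.1%, 23.6%, 28.0% and 23.6% in A20 cKO. Before thinning they ran from 36.5% to 57.3%. Of the 20 cells of other types 1 had Ctsf, which allows a share of up to 24.9%. Ctsc had 67.7%, 82.3%, 80.6% and 75.9% over the control course, against 76.4%, 83.1%, 78.9% and 80.1% over the A20 cKO course, and 79.4% to 94.2% before thinning. As with its level, control naive had the lowest share of cells with Ctsc (63.4% to 71.8%). Ctsl ran from 77.1% (A20 cKO day 1) to 89.9% (control day 2) and Ctsh from 84.6% (A20 cKO day 1) to 95.7% (control day 2). In the 20 cells of other types Ctsc was found in 30.0%, Ctsh in 40.0%, Ctsz in 25.0%, and Ctsa and Ctsl in 10.0% each.

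**Figure D3:**
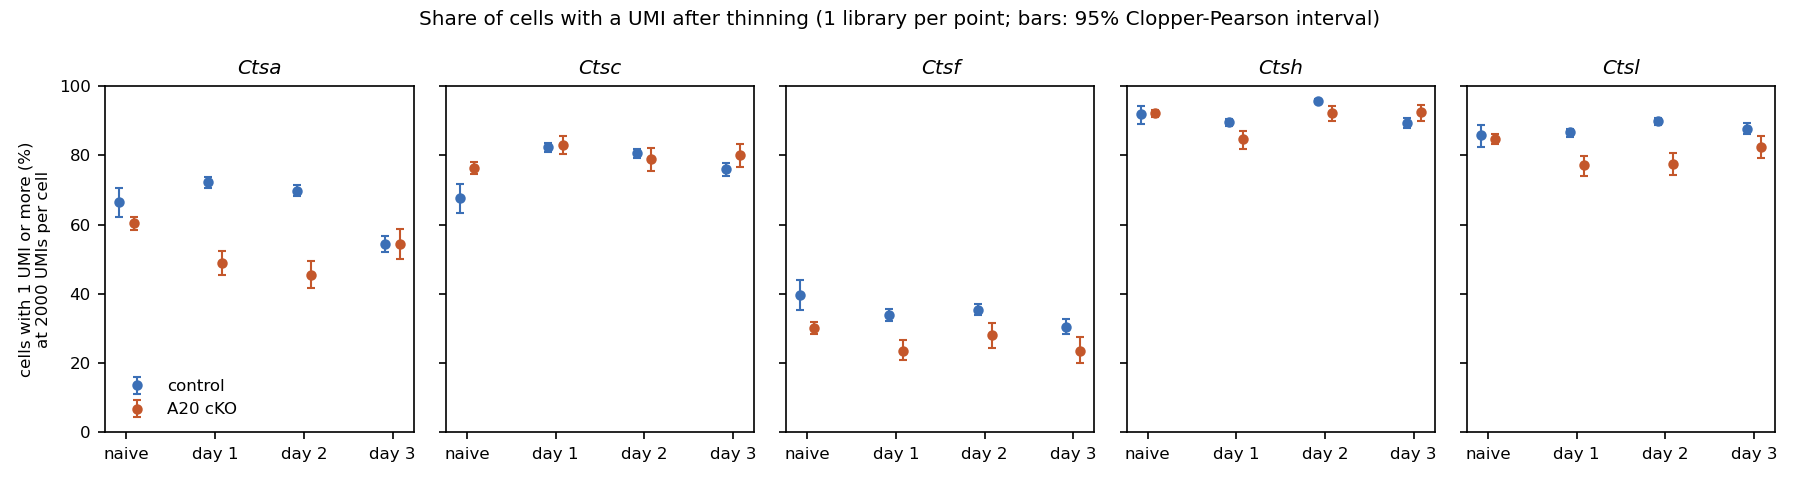
Share of cells with at least 1 UMI (vertical axis, percent) at 2000 UMIs per cell for the 5 members not found in nearly every cell, in 4 control (blue) and 4 A20 cKO (orange) libraries, with 95% Clopper-Pearson intervals. Ctsc was lowest in control naive (67.7%), and Ctsf was found in 23.6% to 39.6% of cells.

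The spread over the cells of a library was described for each member, by a ratio that can be larger for the more abundant ones. At 2000 UMIs per cell, the variance of Ctsd over cells was 1.67 to 2.67 times its mean in the control libraries and 3.15 to 5.72 times in the A20 cKO libraries, where a Poisson count gives a ratio of 1. The most extreme cell, in A20 cKO day 2, had 112 Ctsd UMIs of 2000, in a library whose median was 10. For Ctss the ratio was 1.74 to 3.00 over the control libraries, against 2.87 to 4.16 over those of A20 cKO, and for Ctsb 1.18 to 1.63 and 1.95 to 2.59. Lgmn was at 1.25 to 2.28 and 1.57 to 2.42. Ctsd and Ctsb ratios of the genotypes did not overlap, while those of Ctss and Lgmn did. In both genotypes Ctsa stayed at 1.06 to 1.32 and Ctsf at 0.930 to 1.29. Libraries with RNA of other cells were mostly the A20 cKO ones, and its part in this spread was not tested. The ratio was computed for the members alone, so a wider spread in A20 cKO is not shown to be particular to them.

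In 4 libraries with at least 50 mitotic cells, members were compared between mitotic and other cells of the same library. Ctsc was higher in mitotic cells in all 4, by 0.25 to 0.41 on the log2 scale relative to the median gene. Taking A20 cKO naive as an example, it was at 1108 CPM in 92 mitotic cells and 841 CPM in the other 2830. Another 7 members were below the median gene in mitotic cells of all 4 libraries: Ctsf (-0.89 to -0.26), Ctsa (-0.74 to -0.17), Ctsd (-0.64 to -0.25), Ctsb (-0.51 to -0.16), Ctss (-0.41 to -0.17), Ctsz (-0.16 to -0.01) and Lgmn (-0.11 to -0.01). For Ctsz 3 of the 4 intervals included 0, and for Lgmn 1 did. Ctsh and Ctsl were on both sides, the latter from -0.51 in A20 cKO day 2 to 0.05 in control day 2. Cells of 1 library are not replicates, so these values describe 4 libraries. How many of all genes kept the same sign across libraries was not counted, here or in the Cd74, P2ry12 and Fos splits below. These patterns are therefore not shown to be particular to the members.

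**Figure D4:**
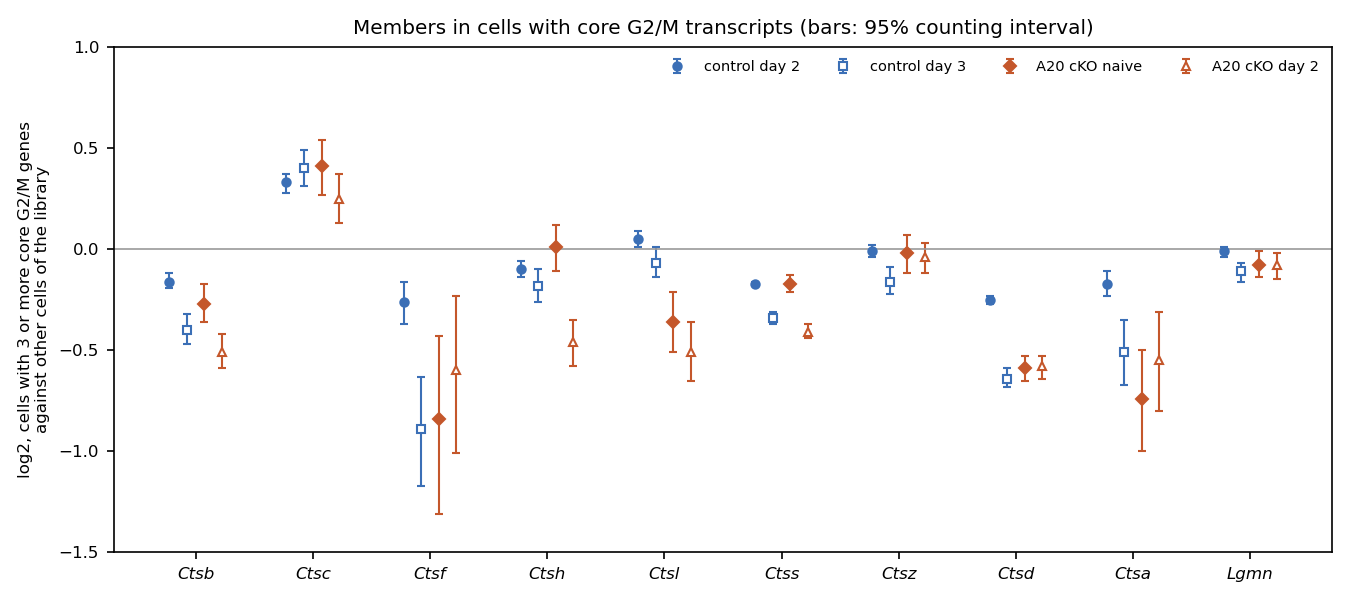
Log2 ratio of each member (horizontal axis) between cells with UMIs of 3 or more core G2/M genes and the other cells of the same library, relative to the median gene, in the 4 libraries with enough such cells (blue control, orange A20 cKO), with 95% counting intervals. Ctsc was above 0 in all 4 libraries (0.25 to 0.41), and Ctsd below 0 in all 4 (-0.64 to -0.25).

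Cells with a UMI of Cd74, the invariant chain that Ctss trims, were compared with cells without one in all 8 libraries, at equal depth. Ctss was above the median gene in the Cd74 cells of all 8, by 0.02 to 0.27, with 7 of 8 intervals above 0. Ctsh was too, by 0.01 to 0.33, with 4 of 8 intervals above 0, those of the A20 cKO libraries. The largest Ctss value was that of A20 cKO naive, with 14492 CPM in 558 Cd74 cells and 12352 CPM in 2054 others. Ctsb, Ctsl and Ctsz were above the median gene in 7 of 8 libraries and Ctsd in 6 of 8, and Lgmn lay between -0.10 and 0.04. The median over the libraries was 0.09 for Ctss, and 0.16 for Ctsb and for Ctsh. In the 6 libraries with at least 50 cells lacking P2ry12, a homeostatic microglia gene, those cells had more Ctsb in A20 cKO naive (0.49) and A20 cKO day 1 (0.47), while in the other 4 the interval included 0, with values from -0.07 (A20 cKO day 3) to 0.07 (A20 cKO day 2). Ctsz was also higher in such cells of A20 cKO naive (0.52) and A20 cKO day 1 (0.34), and was above the median gene in 5 of 6 libraries. Ctsc ranged from -0.15 to 0.44 and was above it in 4 of 6. Ctsf was lower in such cells in 4 of 6 libraries, down to -0.89 in control day 2. In A20 cKO day 2, among those 4, its interval (-1.20 to 0.02) included 0.

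In the 4 libraries where cells with and without Fos could be compared, Lgmn was higher in Fos cells in all 4, by 0.11 to 0.39, and Ctsd by 0.07 to 0.17. Ctsc lay at 0.03 to 0.16 and Ctsa at 0.05 to 0.14. Ctsb (-0.01 to 0.07) and Ctsz (0.01 to 0.08) differed least. All these differences were under 1.5-fold.

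Cystatins and stefins block cysteine cathepsins in a tight complex. Cst3, cystatin C, was the most abundant, at 60841, 38582, 37870 and 28554 CPM over the control course, and at 27465, 22305, 12618 and 11597 CPM in A20 cKO. It stood lower at each later day in both genotypes, and all A20 cKO libraries were below all control libraries. The order also follows the sets of libraries: control day 3 stood next to A20 cKO naive (-0.04 for the latter against the former) and below the other 3 control libraries, so set and genotype cannot be told apart except through control day 3. Relative to the median gene it was past 1.5-fold lower in control day 3 against naive (-1.16), A20 cKO naive against control naive (-1.19), A20 cKO day 2 (-1.05) and day 3 (-1.15) against A20 cKO naive, and A20 cKO day 3 against control day 3 (-1.18).

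The 7 cysteine cathepsins together stayed between 17935 and 24367 CPM. Their UMIs per Cst3 UMI over the control course, from naive to day 3, were 0.307, 0.465, 0.501 and 0.652. Over the A20 cKO course they were 0.776, 0.882, 1.76 and 2.10. The ratio thus stood higher at each later day in both genotypes, with control day 3 between the other 3 control libraries and the A20 cKO ones, and 2.10 (2.07 to 2.13) was the highest. Transcripts are not protein amounts, and the ratio says nothing of protease activity.

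Cst7, cystatin F, which inhibits Ctsc among others, and Cstb, stefin B of the cytosol, went the other way. Cst7 was at 9.87, 11.8, 36.4 and 35.0 CPM over the control course and at 43.3, 71.7, 96.6 and 122 CPM over the A20 cKO course. Cstb was at 97.5, 87.6, 115 and 138 CPM over the control course and at 155, 200, 263 and 257 CPM over the A20 cKO course. On day 3, A20 cKO was higher than control by 1.91 (1.67 to 2.16) in Cst7 and by 1.01 (0.87 to 1.16) in Cstb, the same comparison in which Ctsb, Ctsz and Ctsd were higher. Of 17 cystatins, stefins and serpins on the list, at most 4 were tested in a comparison.

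**Figure D5:**
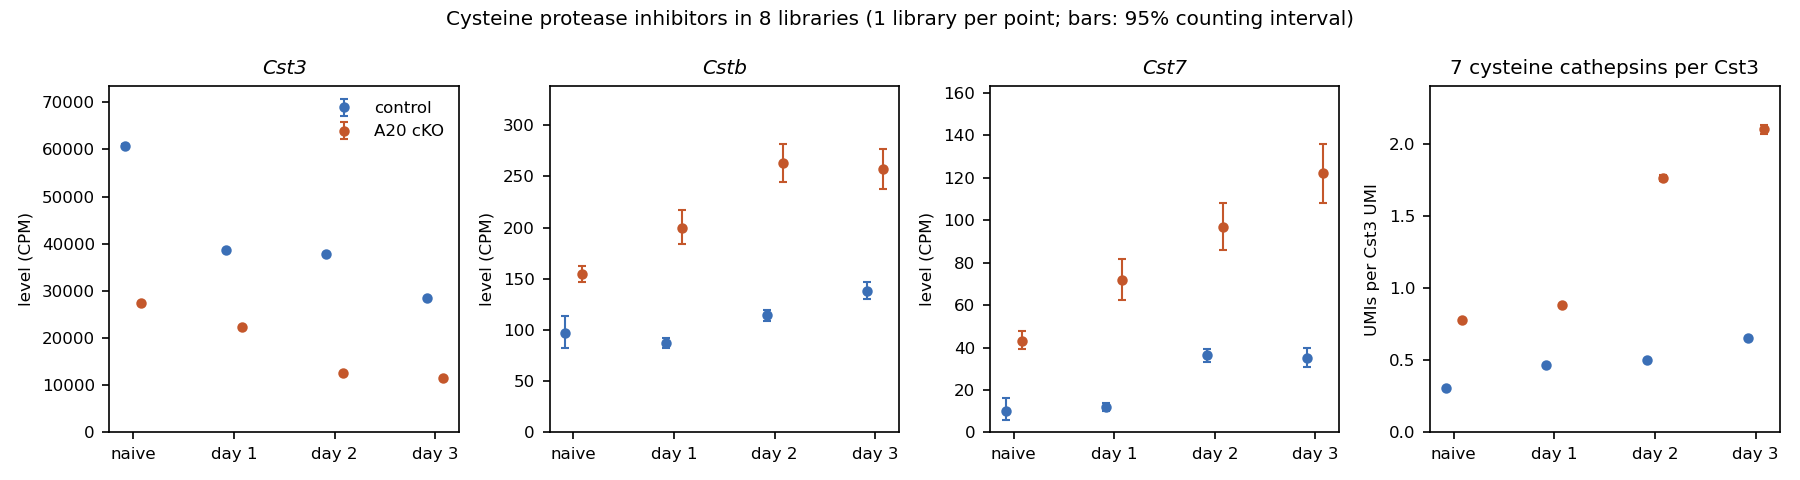
Cst3, Cstb and Cst7 in CPM, and UMIs of the 7 cysteine cathepsins per Cst3 UMI (vertical axes, from 0), in 4 control (blue) and 4 A20 cKO (orange) libraries, with 95% counting intervals. Cst3 ran from 60841 down to 11597 CPM while the ratio ran from 0.307 up to 2.10.

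Of 13 other cathepsins only Ctso, a cysteine cathepsin, was tested, at 91.5 to 129 CPM, and it was past 1.5-fold in no comparison. Ctse, Ctsg, Ctsk and Ctsw had at most 28 UMIs in any library, and the remaining 8 were at 0 in all.

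The other lysosomal genes were counted by list, with all tested genes at a median of 0. Of 38 hydrolases and activators 35 were tested in most comparisons. On control day 1, 4 of 35 were lower (15.3% of all genes) and 2 higher (14.2%), and on day 2, 6 of 36 were lower (14.3%) and 2 higher (16.4%), all near or under the share over all genes. In control day 3, 10 of 35 were lower (12.9%) and 2 higher (17.7%). In control day 3 the list median was -0.41, and Pla2g15, the lysosomal phospholipase A2, was lowest at -1.60, while Ifi30, the thiol reductase that opens disulfides for cathepsins, was higher at 0.71. In A20 cKO naive against control naive 3 of 35 were lower (10.6% of all genes) and 1 was higher (17.1%).

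Within A20 cKO, 4 of 35 hydrolases were lower (6.11% of all genes) and none was higher (6.01%) on day 1, with Hexa, a hydrolase of ganglioside breakdown, at -0.82. On day 2, 2 were lower (8.06%) and 1 was higher (9.19%), both under the share over all genes. On day 3 none was lower (6.24%) and 3 were higher (7.55%), near that share, among them Ifi30 (0.92) and Grn, progranulin (0.59). On day 3 against control day 3, 8 of 35 were higher (6.97%) and 1 was lower (6.61%), at a list median of 0.28. Grn was higher by 0.91 (0.86 to 0.95), from 1355 to 2342 CPM, and Scpep1, a serine carboxypeptidase, by 0.85. In A20 cKO naive against control day 3, 3 were higher (3.86%) and 2 lower (4.67%).

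Lysosomal membrane and trafficking genes (17 of 18 tested) had medians from -0.18 to 0.05. At most 3 were higher, in A20 cKO day 3 against control day 3 (6.97% of all genes). At most 2 were lower, in control day 1 against naive (15.3%). Cd63, a tetraspanin of late endosomes, was at 0.84 and Npc2, a cholesterol carrier, at 0.63 in A20 cKO day 3 against control day 3. Of the vacuolar ATPase, the pump that acidifies lysosomes, 15 of 16 subunits were tested, with medians from -0.24 to 0.24. At most 2 were higher, in A20 cKO day 3 against control day 3 (6.97% of all genes). At most 3 were lower, in control day 3 against naive (12.9%). Of 4 TFE transcription factor genes 3 were tested, with medians from -0.69 to 0.37. None was higher in any comparison, where 3.86% to 17.7% of all genes were. At most 2 were lower, in A20 cKO day 1 against A20 cKO naive (6.11%). Of 7 MHC class II genes 4 to 6 were tested. At most 1 was higher, in comparisons where 3.86% to 17.1% of all genes were. At most 2 were lower, in comparisons where 6.61% to 15.3% of all genes were. In A20 cKO day 3 against control day 3, Cd74 was at 1.67 (1.51 to 1.83) while H2-DMa (-0.62) and H2-DMb1 (-0.61) were lower.

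For the 3 members with the widest ranges, the genes whose log2 CPM followed them most closely over the 8 libraries were listed among 3457 genes of at least 50 CPM on average. For Ctsd these were Naglu and Plbd2, both lysosomal hydrolases, and Marcks, with Pearson's r of 0.939, 0.936 and 0.905. For Ctsf they were Abhd6 (0.990), Map1lc3a (0.978) and F11r (0.975), and for Ctsa Adprh (0.975), Akirin2 (0.971) and Prpsap1 (0.969). The 8 points fall into the 2 sets of libraries and share depth and RNA of other cells within a set, so these values are a description.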

How the data were processed

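Single-cell RNA was measured in 8 libraries, 4 control and 4 A20 cKO, grouped by GEO's labels. The authors deposited UMI counts per gene and barcode, not normalized. The submitters' processing notes name Cell Ranger 2.1.1 and mm10, and the 3′ kit version differs between labels and methods, so the chemistry is not settled. Of 27998 gene identifiers 27722 (99.0%) matched GENCODE M21.

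Cells with at least 1000 UMIs, 500 genes and at most 10% mitochondrial UMIs were kept, and counts were summed per library as CPM. Doublets were not called. Log2 ratios had 0.5 UMIs added and were set relative to the median gene among genes whose 2 sums held 100 UMIs or more together. With 1 library per group no test was run. Exact Poisson, conditional and Clopper-Pearson intervals at 95% cover counting error only, and PCR copies are already collapsed by UMI. Shares were taken at 2000 UMIs per cell, as were the Cd74, P2ry12 and Fos splits, and the mitotic split was not thinned. The script was tested on simulated counts. Python 3.11.15, numpy 2.4.6, scipy 1.17.1, pandas 2.3.3 and matplotlib 3.10.9 were used.

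Named genes were all 10 members, up to 4 genes per list and comparison with the largest ratios at a mean of at least 50 CPM, and the 3 genes closest in pattern to each of 3 members. Members and lists were chosen with earlier results of these data known. Alternatives were other cell filters, scalings, gene filters and thinnings, and leaving out mitotic cells, shared barcodes or cells with other-type markers. A narrower list of such markers was added after seeing the data.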

Additional observations from a re-analysis of the deposited data

Results flagged for a closer look

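Each result here is a member whose ratio to naive on the same day had opposite signs in the 2 genotypes, with both counting intervals clear of 0. Each arm is 1 library against 1, so the difference between genotypes was not tested. Counting intervals are narrow for genes with many UMIs, and how many of all genes met this rule was not counted. The flagged members are therefore not shown to stand out from other genes. The control arm of day 3 also crosses the 2 sets of libraries. Values are log2 ratios relative to the median gene, control first.

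On day 1, Ctsa was at 0.26 and -0.41, Ctsb at 0.07 and -0.22, Ctsl at 0.09 and -0.34, and Lgmn at 0.19 and -0.41. Without the shift by the median gene the control values of Ctsb (-0.05) and Ctsl (-0.04) turned negative, so these 2 contrasts rest on the scaling. On day 2, Ctsa was at 0.14 and -0.50, Ctsl at 0.37 and -0.22, and Lgmn at 0.04 and -0.23. The control value of Lgmn turned to -0.07 without the shift.

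On day 3 the signs were the other way round. Ctsd was at -1.03 in control and 0.19 in A20 cKO, Ctsz at -0.35 and 0.59, Ctsb at -0.24 and 0.55, Lgmn at -0.31 and 0.14, and Ctss at -0.06 and 0.20. The control value of Ctss turned to 0.01 without the shift. Ctsd, Ctsz and Ctsb are also the 3 members that were higher in A20 cKO day 3 than in control day 3. That comparison uses the same day 3 libraries, so it is not a separate observation.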

How the results depend on the processing

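Each of 90 log2 ratios of a member was recomputed under 10 alternative settings. Of these 900 values 21 changed sign, all from members within 0.11 of the median gene, and none of a member past 1.5-fold. Counts of members past 1.5-fold moved as follows. Higher in control day 1 against naive: 0 without the shift by the median gene (1 as reported). Higher in control day 2: 0 by the mean of single-cell CPM, without the shift or without mitotic cells, and 2 without the filter on low counts, when Ctsh joined Ctsc. Lower in control day 3: 1 (Ctsd) without the shift, the low-count filter or mitotic cells. Lower in A20 cKO naive against control naive: 2 (Ctsd and Ctsf) by the mean of single-cell CPM or with median-of-ratios size factors, and 0 without the low-count filter. Lower in A20 cKO day 1: 1 (Ctsd) without cells with other-type markers. Higher in A20 cKO day 3 against A20 cKO naive: 0 without the shift or the low-count filter, and 2 (Ctsb and Ctsz) by the mean of single-cell CPM, without mitotic cells, or without cells with other-type markers by either list. Counts for A20 cKO day 3 and naive against control day 3 stayed within 1.5 times. The cause was not tested, beyond the shift of the median gene itself, which lay between -0.13 and 0.07. Shares of cells depend on depth: thinning to 1000 UMIs moved 74 of 80 beyond their interval and no thinning 55. No library could be left out, since each group had 1, and no paired analysis was possible because no group had a replicate.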
